A study of Mus musculus with 8 samples.

Results

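Cultured mouse primary keratinocytes differed in how strongly they expressed their cell cycle genes from array to array, and the 8 arrays of the study were selected on those levels into a low-proliferation set of 3 and a high-proliferation set of 5. By the labels, all cells carried a retrovirus with an empty vector and were of 1 cell type, and no deleted or added gene is named. The low set was untreated replicate 2, 120 min and 180 min of tamoxifen. The high set was untreated replicate 1, 20, 40, 60 and 240 min of tamoxifen. Each treated time point was a single array, replicate numbers of the untreated pair are only names, and nothing in the labels says whether arrays came from separate cultures or animals, or when they were processed. Every label carries the same description, which names tamoxifen for all 8 arrays, so the titles were followed in calling 2 of them untreated. The sources used here give no tamoxifen dose, mouse strain, animal age or empty vector name.

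Because the levels of cell cycle genes on these same 8 arrays chose the sets, all differences between them are descriptions, and no test of them was made. A gene was called lower or higher when the sets did not overlap, that is, when all 3 low arrays lay on one side of all 5 high arrays. Levels are log2(intensity + 16), differences are the mean of the low set minus the mean of the high set on that scale, and a mean difference of 0.3 is a fold of 1.23. For single genes, values are given in a fixed order, for the high set as untreated replicate 1, 20, 40, 60 and 240 min, and for the low set as untreated replicate 2, 120 and 180 min. Of 22690 probe sets, 20380 had 1 gene symbol, and after dim probe sets were left out 9294 genes remained, each with 1 probe set. The cell cycle lists held 266 of them, and the other 9028 genes are called outside genes here.

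Proliferating cells copy their DNA in S phase and divide in M phase, and the genes for both steps are switched on in waves. In resting cells the DREAM complex and retinoblastoma proteins hold many of them off. E2F sites mark many promoters of the first wave, and CHR elements, often beside CCAAT boxes bound by NF-Y, mark many of the second. Cells that leave the cycle are known to lower ribosome and RNA production and, in many systems, to turn up lysosomal breakdown and growth-restraining genes controlled by FOXO factors. Cultured epidermal keratinocytes grow as basal cells and stop dividing when they begin to differentiate. In such bulk RNA, fewer cycling cells and less RNA per cycling cell cannot be told apart.

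The 4 markers of the rule show the size of the difference that chose the sets. Mki67, the nuclear antigen Ki-67 of cycling cells, read 10.56, 9.96, 10.38, 10.25 and 10.55 in the high set and 9.51, 9.42 and 9.62 in the low set, a difference of -0.82. Plk1, a mitotic kinase, read 10.03, 9.44, 9.76, 9.72 and 9.99 in the high set and 8.97, 8.99 and 9.12 in the low set (-0.76). The S phase enzyme thymidine kinase, Tk1, read 9.70, 9.10, 9.65, 9.54 and 9.61 in the high set and 8.56, 8.68 and 8.64 in the low set (-0.89). In all 3 genes the array at 20 min was the lowest of the high set, and untreated replicate 1 was the highest. Ccna2, cyclin A2, read 10.28, 9.71, 10.24, 10.18 and 10.23 in the high set and 9.18, 9.19 and 9.31 in the low set (-0.90), with 4 high arrays close together and 20 min again below them. The array just inside the high set was thus 20 min, whose mean over the 38 measured genes of the G2/M core list was 9.16, and the one just outside it was 180 min, at 9.04. Over the 5 high arrays that mean ran to 9.67 and over the 3 low arrays down to 8.94. The S phase core list of 29 genes read 9.45, 9.22, 9.49, 9.41 and 9.44 in the high set and 9.07, 9.05 and 9.10 in the low set.

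Across the cell cycle lists, 135 of 266 genes were lower in the low set without overlap (50.8%, against 13.0% of all 9294 genes), and 83 of them by at least 0.3 (31.2%, against 3.22%). All genes higher by at least 0.3 made up 2.67%. These shares follow from the rule and support nothing. The genes with large differences included Uhrf1, which keeps DNA methylation through replication (-0.86), the helicase subunits Mcm5 (-0.62) and Mcm6 (-0.62), DNA ligase Lig1 (-0.64), the spindle gene Aspm (-0.68) and the survivin gene Birc5 (-0.68). Rbl1, the retinoblastoma relative p107 and itself an E2F target, read 8.83, 8.56, 9.03, 8.93 and 8.997 in the high set and 8.08, 8.16 and 8.14 in the low set (-0.74). The 3 listed genes higher in the low set (1.13%, against 17.2% of all genes) were Top3a at 0.10, Pold4 at 0.44 and the linker histone H1f2 at 0.35.

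Most of the regulators of entry into the cycle named here overlapped between the sets, and they were named after their values were seen. Overlap was the usual case, since 13.0% of all genes were lower and 17.2% higher without it. The D cyclins Ccnd1 (0.05), Ccnd2 (0.12) and Ccnd3 (-0.06), the kinases Cdk4 (0.16) and Cdk6 (0.18), and the CDK inhibitors Cdkn1a (0.15), Cdkn1b (-0.05), Cdkn2b (0.11) and Cdkn2c (-0.10) overlapped. Of further Cdk4 probe sets, that at 0.18 was higher without overlap and that at 0.14 overlapped. Cyclin E1, Ccne1, which drives the step into S phase, was lower without overlap (-0.30), while Ccne2 (-0.12) and E2f1 (-0.05) overlapped.

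Promoter sequences of 2 mitotic genes and 1 replication gene are shown. Candidates were called members of the core lists with 1 promoter window, ranked by size of difference, with windows of 1 chromosome left out. That window also had to hold CHR letters and CCAAT, or E2F-like letters for the replication gene, so their presence was fixed by choice. Ccnb2 and Mcm5 also met these rules and are not printed. The sequences are the 250 bases before the RefSeq start site, on mouse build GRCm38.p6, printed in the direction of transcription. Capitals mark CHR letters, which are TTTGAA or its variant TTCGAA, and also the box CCAAT, in Mki67 (chr7:135716380-135716629, minus strand) and in Top2a (chr11:99024190-99024439, minus strand), the gene of DNA topoisomerase II alpha. In Mcm6 (chr1:128359706-128359955, minus strand) they mark E2F-like letters, which are TTTGGCG, else the variant TTTCGCG, else the variant TTTCCCG, and also CCAAT. Both strands were searched, so that a motif can appear as its reverse complement, and E2F-like matches can overlap each other.
Mki67: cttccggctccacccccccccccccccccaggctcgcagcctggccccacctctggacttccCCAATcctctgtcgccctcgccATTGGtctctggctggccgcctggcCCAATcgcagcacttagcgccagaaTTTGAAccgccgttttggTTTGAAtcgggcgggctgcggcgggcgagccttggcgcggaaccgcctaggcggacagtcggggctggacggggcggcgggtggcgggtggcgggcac
Top2a: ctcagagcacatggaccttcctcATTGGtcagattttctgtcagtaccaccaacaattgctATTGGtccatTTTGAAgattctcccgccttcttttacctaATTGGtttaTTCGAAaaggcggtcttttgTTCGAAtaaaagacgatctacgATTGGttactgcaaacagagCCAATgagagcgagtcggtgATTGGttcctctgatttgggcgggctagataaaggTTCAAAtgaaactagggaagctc
Mcm6: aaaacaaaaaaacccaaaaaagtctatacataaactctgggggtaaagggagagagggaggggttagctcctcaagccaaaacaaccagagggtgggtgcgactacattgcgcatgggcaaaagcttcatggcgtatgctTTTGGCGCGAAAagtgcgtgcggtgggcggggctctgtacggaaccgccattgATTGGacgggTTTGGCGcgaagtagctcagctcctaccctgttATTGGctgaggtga

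In windows that also take in the 50 bases after the start site, CHR letters were present in 27 of 34 windows of the G2/M core list (79.4%) and in 4 of 30 of the S phase core list (13.3%), against 13.5% of the 9632 windows matched to the 9294 genes and 19.2% of all 32851 windows of the table. E2F-like letters were present in 11.8% of the G2/M core windows and 43.3% of the S phase core windows, against 9.44% for the genes measured and 5.58% in the table. The box CCAAT was in 79.4% and 56.7%, against 37.2% and 37.4%. RefSeq windows were found for 32 of 38 and 25 of 29 genes of these lists.

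**Figure D1:**
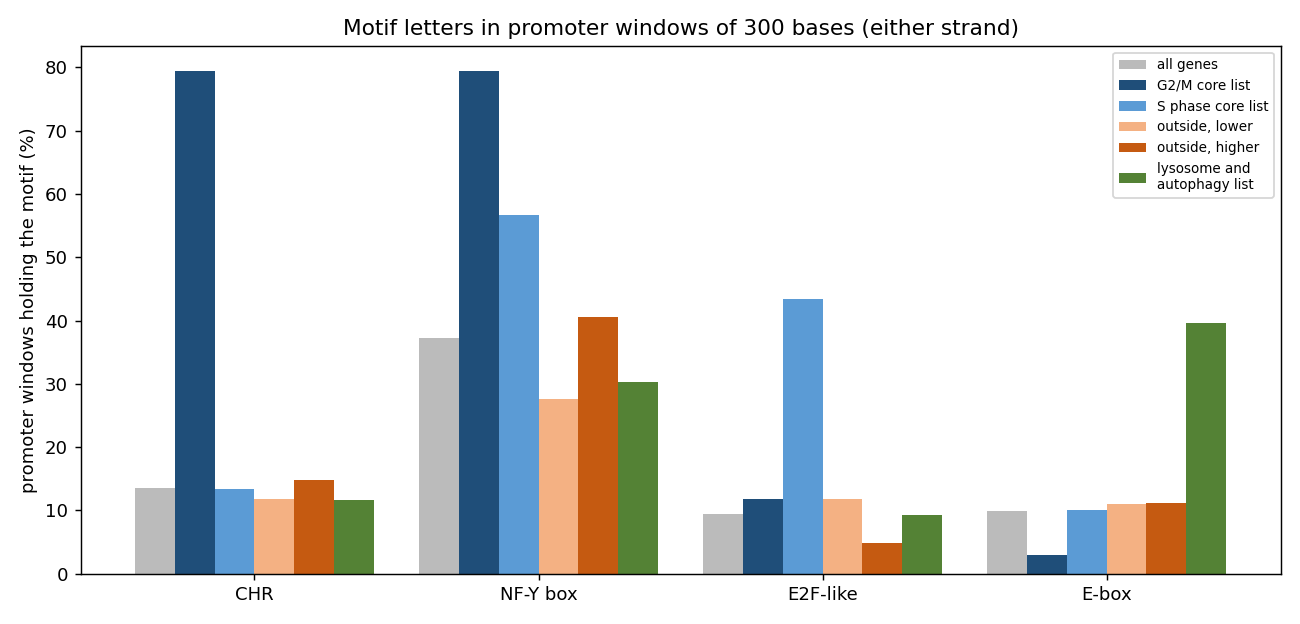
Share of promoter windows (y axis, %) that hold the letters of 4 motifs on either strand, in 6 groups of genes. CHR letters stand at 79.4% in the G2/M core list, and the outside genes lie near all genes measured, at 11.7% and 14.9% against 13.5%.

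The outside genes were the question here. Of 9028, 1073 were lower in the low set without overlap (11.9%) and 1592 higher (17.6%). With a mean difference of at least 0.3, 216 were lower (2.39%) and 246 higher (2.72%). The largest differences among them were -0.91 downward, in Mdp1, close to the -0.90 of Ccna2, and 1.14 upward, in Fabp4. Over the 216 and the 246, the median difference was -0.38 and 0.37, and the median gap between the nearest arrays of the 2 sets was 0.18 in both. Over all 9294 genes the median difference was 0.02 with an SD of 0.16 across genes. In the promoters of these 216 and 246 genes, the shares of the motifs lay near those of all genes measured, or below them for E2F-like letters in the higher and CCAAT in the lower genes. CHR letters were in 11.7% of the windows of the lower and 14.9% of the windows of the higher genes. E2F-like letters were in 11.7% and 4.83%, and CCAAT in 27.5% and 40.5%.

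Although the sets were the same, the outside genes ordered the 5 high arrays differently from the cell cycle genes. For the 83 cell cycle genes, the high array farthest from the low set was untreated replicate 1 for 36 genes (43.4%), 240 min for 21 (25.3%), 40 min for 20 (24.1%) and 60 min for 6 (7.23%). For the 216 lower outside genes it was 60 min for 163 (75.5%) and 40 min for 42 (19.4%), and untreated replicate 1 for 3 (1.39%). For the 246 higher ones it was 60 min for 155 (63.0%) and 40 min for 74 (30.1%). Without the limit on the size of the difference, 60 min was farthest for 631 of all 1073 lower outside genes (58.8%). Over all 1592 higher outside genes, 40 min was farthest for 659 (41.4%) and 60 min for 577 (36.2%). The lead of 60 min in the higher genes thus depended on that limit. At the other end, 20 min was the nearest high array for 81 of the 83 cell cycle genes, whereas untreated replicate 1 was nearest for 125 of the 216 (57.9%) and 154 of the 246 (62.6%). Within the low set the array at 120 min was the farthest for 195 of the 246 higher genes (79.3%) and 128 of the 216 lower genes (59.3%).

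**Figure D2:**
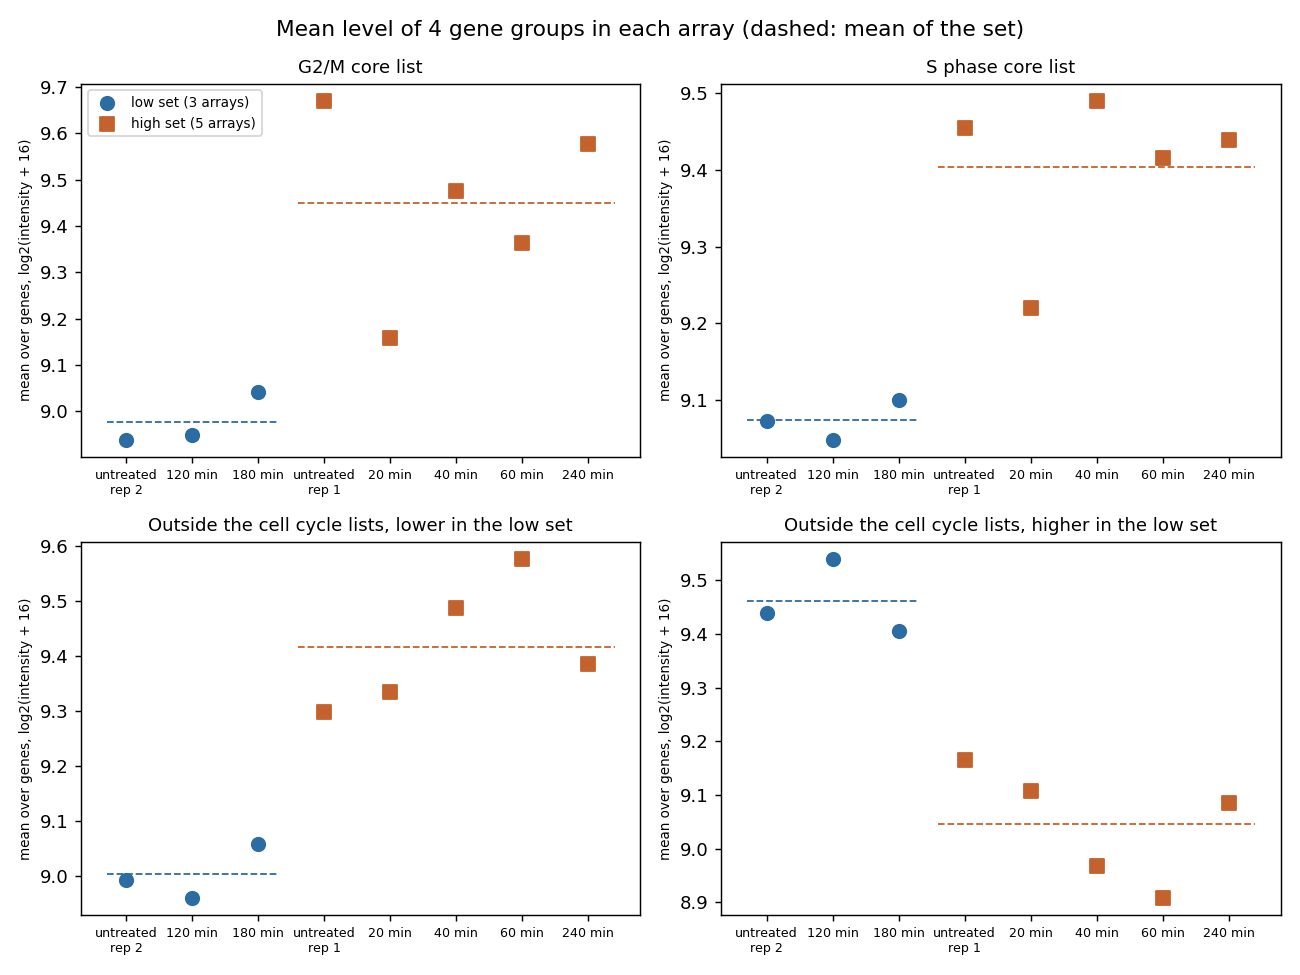
Mean over the genes of 4 groups (y axis, log2(intensity + 16)) in each of the 8 arrays, with the mean of each set dashed; the 2 lower panels show the 216 and 246 outside genes. Untreated replicate 1 is the highest array for the G2/M core list, at 9.67, while 60 min is the highest for the lower outside genes, at 9.58, and the lowest for the higher ones, at 8.91.

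**Figure D3:**
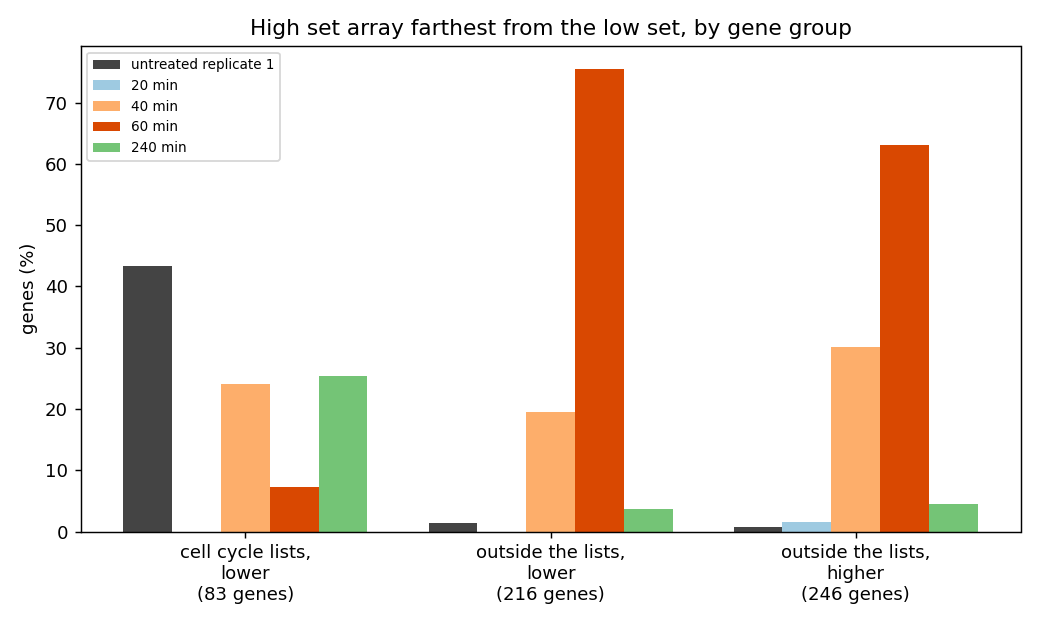
Share of genes (y axis, %) for which each high array lies farthest from the low set, in the 83 cell cycle genes and in the 216 lower and 246 higher outside genes. Untreated replicate 1 leads in the first group with 43.4%, and 60 min in the other 2 with 75.5% and 63.0%. Without the limit on the size of the difference (not drawn), 40 min leads in the higher outside genes with 41.4%, against 36.2% for 60 min.

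Averaged over the 216 lower outside genes, the arrays read 9.30, 9.34, 9.49, 9.58 and 9.39 in the high set, in the order above, and 8.99, 8.96 and 9.06 in the low set. The 246 higher genes read 9.17, 9.11, 8.97, 8.91 and 9.08, and 9.44, 9.54 and 9.41. The first hour of tamoxifen was thus graded in both groups, from 20 to 60 min, and the low arrays stood beyond the other end of that grade. In a control for RNA length, Actb 3' minus 5', the array at 60 min also stood apart, at 0.20 against 0.26 to 0.28 on the other 7 arrays. In the like controls of Gapdh, Tfrc and Pcx it lay within the range of the other arrays, at -0.01, 1.33 and -0.57. The part of RNA length in these values was not tested. Without 60 min, 163 of the 216 and 197 of the 246 genes kept their call. Without 120 min, 178 and 190 did, and without all 3 arrays of the first hour 129 and 141. Leaving out arrays cannot make the sets of a gene overlap, so these calls ended only where the difference came under 0.3.

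The 15 outside genes with the largest differences downward included genes of RNA production, protein targeting, amino acid stress and adhesion. Mdp1, a magnesium-dependent phosphatase, read 8.003, 8.19, 8.52, 8.72 and 8.15 in the high set and 7.47, 7.20 and 7.55 in the low set (-0.91). Snrpa1, a protein of the U2 spliceosomal particle, read 10.30, 10.25, 10.54, 10.54 and 10.34 in the high set and 9.59, 9.57 and 9.74 in the low set (-0.76). Among genes of at least 0.3 outside the lists the widest gap downward was that of Snrpa1, 0.51 between 180 min and 20 min. The group held 2 genes of RNA polymerases. Znrd1, a subunit of RNA polymerase I, read 7.92, 8.002, 8.52, 8.84 and 8.11 in the high set and 7.53, 7.44 and 7.71 in the low set (-0.72), and its highest array was 60 min. Polr3c, a subunit of RNA polymerase III, read 8.42, 8.51, 8.81, 8.94 and 8.49 in the high set and 7.94, 7.94 and 7.97 in the low set (-0.68). The range of its low arrays was 0.03, against 0.52 for the high arrays.

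Protein targeting was represented by Srp68, a subunit of the signal recognition particle, which read 9.27, 9.36, 9.56, 9.83 and 9.45 in the high set and 8.82, 8.84 and 8.87 in the low set (-0.65), and by Stx18, a membrane fusion protein of the endoplasmic reticulum, which read 8.91, 9.03, 9.17, 9.43 and 9.12 in the high set and 8.44, 8.26 and 8.51 in the low set (-0.73). Ilk, the integrin-linked kinase of focal adhesions, read 9.17, 9.13, 9.46, 9.62 and 9.28 in the high set and 8.68, 8.44 and 8.65 in the low set (-0.74). The LIM-domain genes Fhl1 and Csrp1, which act at the actin cytoskeleton, stood at -0.76 and -0.76, with 60 min the highest array in each (10.98 and 11.25). Csrp1 read 10.49 in untreated replicate 1 and 10.21 at 180 min, so the sets were 0.28 apart at their nearest.

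Adm, the peptide adrenomedullin, read 8.35, 8.97, 9.16, 9.65 and 8.32 in the high set and 8.14, 8.04 and 8.15 in the low set (-0.78). Its difference lay mostly in the first hour: untreated replicate 1 and 240 min lay near the low set, and the gap was 0.17. Trib3, a pseudokinase induced in amino acid stress, read 9.78, 10.07, 10.39, 10.53 and 10.01 in the high set and 9.24, 9.31 and 9.47 in the low set (-0.81). Bcat1, which starts the breakdown of branched-chain amino acids, stood at -0.62, the zinc finger gene Zscan26 at -0.74, and Hus1, part of a DNA damage clamp, at -0.61. Syce2, a synaptonemal complex gene, read 8.98, 8.70, 9.03, 9.02 and 8.87 in the high set and 8.30, 8.24 and 8.40 in the low set (-0.61), with 20 min the lowest of the high set.

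**Figure D4:**
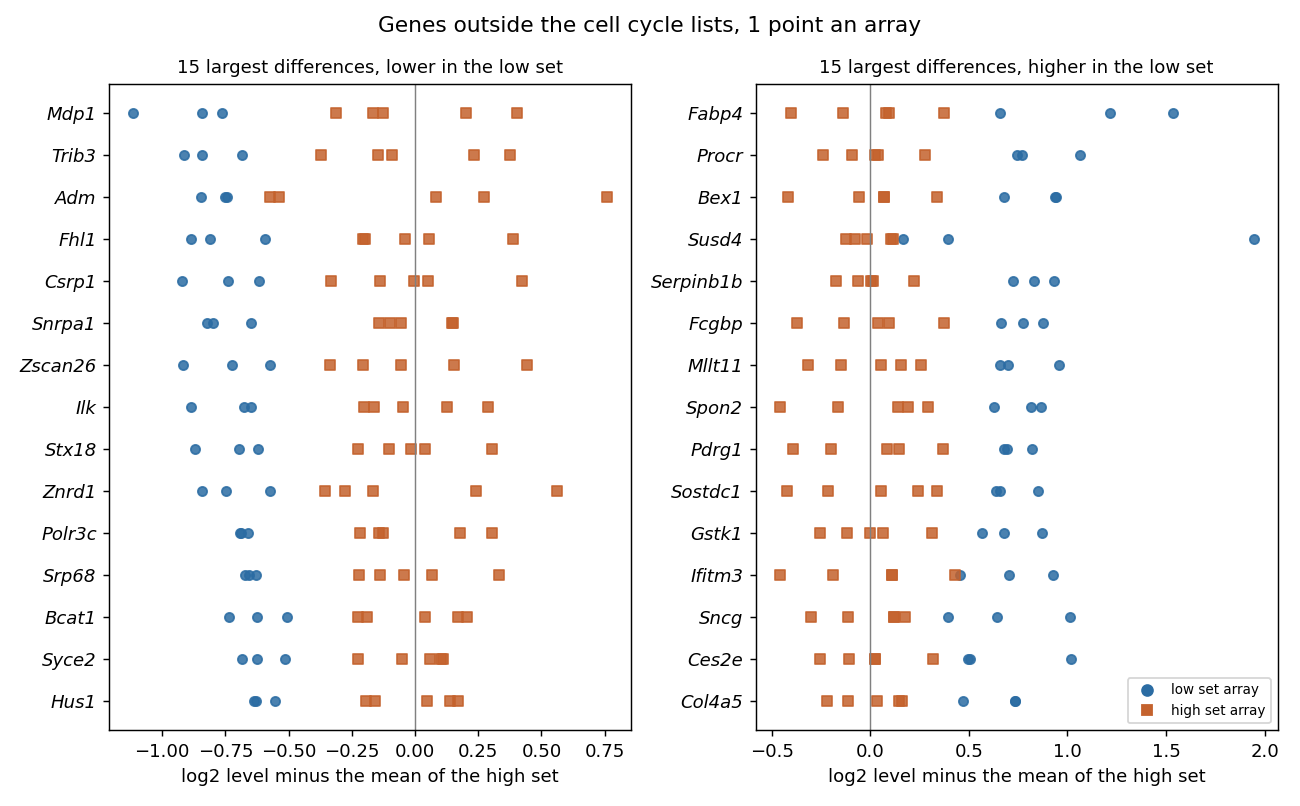
Level of each array minus the mean of the high set (x axis, log2) for the 15 outside genes with the largest difference in each direction, 1 point an array. The sets are apart in all 30 genes by their choice; the gap is 0.51 in Snrpa1, 0.02 in Ifitm3 and 0.05 in Susd4, where 1 low array stands far out.

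Syce2 and Snrpa1 shared with most cell cycle genes that 20 min was the high array nearest to the low set. This held for 70 of the 216 lower genes, and in 25 of the 70 the farthest array was not 60 min but 40 min (16 genes), 240 min (6) or untreated replicate 1 (3). These 25 were picked after their values were seen. They did not have the whole order of the cell cycle genes: 240 min minus the first-hour mean was -0.11 in Snrpa1 and -0.05 in Syce2, against a median of 0.16 for the 83 cell cycle genes. The 25 included Psip1, a chromatin-bound coactivator, which read 8.93, 8.79, 8.98, 8.86 and 8.84 in the high set and 8.47, 8.45 and 8.51 in the low set (-0.41), the chromatin protein Hmga2 (-0.36), the polycomb gene Cbx6 (-0.38), the nuclear envelope gene Nrm (-0.34) and Ints7 of the Integrator complex (-0.34). Gap junction protein connexin 26, Gjb2, read 9.44, 9.23, 9.58, 9.48 and 9.34 in the high set and 8.98, 8.82 and 8.76 in the low set (-0.56), and was also among them.

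Upward, Fabp4 had the largest difference of the called outside genes. This fatty acid carrier read 9.79, 9.50, 9.28, 9.01 and 9.51 in the high set and 10.63, 10.95 and 10.07 in the low set (1.14), with 120 min highest and a fall from 20 to 60 min inside the high set. A further Fabp4 probe set gave 1.11, and another past the filter gave 0.09 with overlap. Procr, the receptor of protein C, read 8.17, 7.93, 7.80, 7.65 and 7.92 in the high set and 8.67, 8.96 and 8.64 in the low set (0.86), and Serpinb1b, a protease inhibitor, read 7.12, 6.90, 6.84, 6.72 and 6.91 in the high set and 7.62, 7.83 and 7.73 in the low set (0.83). The gap between the sets of Procr was 0.47. Serpinb1b passed the filter through the low set: its mean over the high set was below the limit of 7.04, so it had to be higher in the low set, and its difference supports nothing. The same held in their own direction for 3 of the 216 lower and 3 of the 246 higher genes, Serpinb1b included. Genes called with a difference under 0.3 were not counted here, so the list counts below can hold more such members. Bex1 read 9.37, 9.10, 8.98, 8.61 and 9.10 in the high set and 9.97, 9.97 and 9.71 in the low set (0.85), again with 60 min lowest.

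Several secreted or matrix genes were in this group. Sostdc1, an antagonist of BMP and Wnt signals, read 9.37, 9.18, 8.91, 8.70 and 9.46 in the high set and 9.78, 9.98 and 9.77 in the low set (0.71). Spon2, a matrix protein, read 8.75, 8.65, 8.29, 8.001 and 8.60 in the high set and 9.27, 9.32 and 9.08 in the low set (0.77). The low arrays spanned 0.21 and 0.24, the high arrays 0.76 and 0.75. The basement membrane collagen gene Col4a5 stood at 0.65, the mucin-like Fcgbp at 0.77, the synuclein Sncg at 0.68, Mllt11 at 0.77 and Pdrg1 at 0.73. The enzymes Gstk1, a glutathione transferase, and Ces2e, a carboxylesterase, stood at 0.71 and 0.67. Susd4, a complement regulator, read 8.18, 8.05, 7.99, 7.95 and 8.17 in the high set and 10.02, 8.46 and 8.23 in the low set (0.83), and that difference rested on untreated replicate 2; without it the value was 0.28. Ifitm3, an antiviral membrane protein, read 11.41, 11.09, 10.79, 10.52 and 11.09 in the high set and 11.69, 11.91 and 11.44 in the low set (0.69), and untreated replicate 1 all but reached the low set.

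Lists of genes with a common role were read against the background shares of 11.9% lower and 17.6% higher among outside genes. mRNA splicing factors stood out in number: 28 of 51 were lower and 1 higher, with a median difference of -0.14, against 0.02 over the outside genes. Their mean read 10.75, 10.72, 10.79, 10.78 and 10.74 in the high set and 10.61, 10.59 and 10.63 in the low set. The differences of single genes were modest. Hnrnpd, an RNA-binding protein that also governs mRNA decay, read 11.34, 11.27, 11.48, 11.42 and 11.27 in the high set and 11.02, 10.90 and 10.93 in the low set (-0.40). Srsf2, a splicing enhancer protein, read 11.003, 10.84, 10.999, 10.98 and 10.85 in the high set and 10.67, 10.60 and 10.53 in the low set (-0.33), and Rbm39 (-0.33), Prpf3 (-0.35) and Sf3a1 (-0.32) were of like size. Further Rbm39 probe sets past the filter ran from -0.22 to -0.12, most of them with overlap. A further Sf3a1 probe set gave -0.05 with overlap, and those of Srsf2 gave -0.30, -0.25 and -0.03, only the last with overlap. E2F-like letters were in 15 of 67 promoter windows of the list (22.4%, against 9.44% for all genes measured).

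Nuclear transport and lamina genes had 18 of 39 lower and 1 higher (median -0.11), among them Ranbp1, a regulator of the Ran GTPase, which read 12.05, 11.85, 12.05, 12.01 and 11.94 in the high set and 11.65, 11.64 and 11.66 in the low set (-0.33), and the pore subunit Nup160 (-0.33). Of 44 chromatin regulators, 18 were lower and 3 higher (median -0.11). Cbx5, the heterochromatin protein HP1 alpha, which is also in a cell cycle list, read 9.28, 9.06, 9.15, 9.16 and 9.36 in the high set and 8.86, 8.79 and 8.85 in the low set (-0.37). Without it 17 of 43 were lower and 3 higher. The remodelling subunit Smarcd1 (-0.41), the DNA methyltransferase Dnmt3b (-0.35), the polycomb gene Bmi1 (-0.34) and the arginine methyltransferase Prmt5 (-0.33) were lower too. A further Dnmt3b probe set gave -0.12 with overlap, and a further Bmi1 probe set -0.19 without it. In nucleotide synthesis genes outside the S phase lists, 9 of 31 were lower and 3 higher. Mthfd2, a mitochondrial folate enzyme, read 10.05, 10.12, 10.21, 10.35 and 10.22 in the high set and 9.65, 9.77 and 9.87 in the low set (-0.43), and Dtymk, which makes thymidine diphosphate, stood at -0.34. In the other direction Nme4 stood at 0.44 and Pnp at 0.35.

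In these 3 lists of splicing, nuclear transport and chromatin genes, the list mean kept its sign on each side of the design. Both sides were assigned by the same cell cycle levels and hold few arrays, so that sharing supports nothing. For splicing factors, untreated replicate 2 minus replicate 1 was -0.14 and 120 and 180 min minus 240 min was -0.13. The same 2 values were -0.12 and -0.11 for nuclear transport genes, and -0.09 and -0.14 for chromatin regulators. Within the high set, 240 min minus the first-hour mean was -0.02, -0.0024 and 0.01, so the first hour and the last array stood close together. Other lists also kept 1 sign on both sides, among them amino acid stress, translation initiation and cell junction genes.

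Amino acid and unfolded protein stress genes had the largest share of all outside lists downward: 20 of 34 were lower and none higher (median -0.19). Atf4, the transcription factor of this response, stood at -0.38, and Atf5 read 10.83, 11.14, 11.22, 11.42 and 11.11 in the high set and 10.53, 10.42 and 10.68 in the low set (-0.60). Ddit3, the factor CHOP, stood at -0.45, the amino acid carrier Slc7a5 at -0.42 and the alanyl-tRNA synthetase Aars at -0.41. Here the first hour added to the difference: the list mean read 10.08, 10.18, 10.23, 10.30 and 10.15 in the high set and 9.93, 9.98 and 10.01 in the low set, and its difference of -0.21 was -0.14 without the first-hour arrays. Untreated replicate 2 minus replicate 1 was -0.15, and 120 and 180 min minus 240 min was -0.16. For splicing factors these were -0.14 and -0.13.

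Translation initiation factors were lower in 16 of 33 genes and higher in 1 (median -0.07). Eif6, an anti-association factor of the large ribosomal subunit, stood at -0.32, and the poly(A)-binding protein Pabpc4 at -0.30. Ribosome biogenesis genes were lower in 14 of 41 and higher in 2 (median -0.10), yet their list means overlapped. They read 10.28, 10.32, 10.36, 10.38 and 10.22 in the high set and 10.23, 10.25 and 10.24 in the low set, with 240 min the lowest of all 8 arrays. Without the first-hour arrays the mean difference of -0.07 was -0.0067. The nucleolar gene Nop56 read 11.43, 11.49, 11.61, 11.62 and 11.31 in the high set and 11.26, 11.21 and 11.23 in the low set (-0.26) and Ddx21, an RNA helicase, stood at -0.26. Imp3 (0.27) and Nop10 (0.23) were higher in the low set. Of 35 cytosolic ribosomal protein genes, 2 were lower and 0 higher, and the median was 0.0024. Mitochondrial ribosomal proteins divided in both directions, 16 lower, such as Mrps25 (-0.47), and 10 higher of 63, such as Mrps6 (0.28). Further Mrps25 probe sets gave -0.21 without overlap and -0.02 with it.

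Cell junction and actin genes were lower in 12 of 45 and higher in 1 (median -0.09). Cldn7, a tight junction claudin, read 7.60, 7.71, 7.92, 8.09 and 7.63 in the high set and 7.30, 7.20 and 7.25 in the low set (-0.54), and Zyx, the focal adhesion protein zyxin, read 9.99, 10.14, 10.31, 10.50 and 10.18 in the high set and 9.73, 9.80 and 9.77 in the low set (-0.46). In both, 60 min was the highest array. Sterol synthesis genes had 7 of 28 lower and 1 higher, and their list means overlapped at 9.58, 9.41, 9.49, 9.48 and 9.60 in the high set and 9.41, 9.43 and 9.42 in the low set. The high arrays themselves were split, with untreated replicate 1 and 240 min above those of the first hour. The list's difference was -0.09 over the 8 arrays, -0.18 in the untreated pair, -0.18 for 120 and 180 min against 240 min, and -0.17 without the first-hour arrays. Hmgcs1, which makes the precursor of mevalonate, read 11.31, 11.12, 11.32, 11.32 and 11.45 in the high set and 10.98, 10.99 and 11.01 in the low set (-0.31), and squalene epoxidase, Sqle, stood at -0.33.

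Of the lists drawn as outside the cell cycle, 6 share 1 or 2 genes with the cell cycle lists. Without those genes the mean difference was -0.07 for ribosome biogenesis, -0.12 for chromatin regulators, 0.10 for p53 targets, 0.10 for quiescence genes, 0.01 for the Myc network and 0.06 for TGF-beta targets, and the numbers of called genes moved by at most 1.

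**Figure D5:**
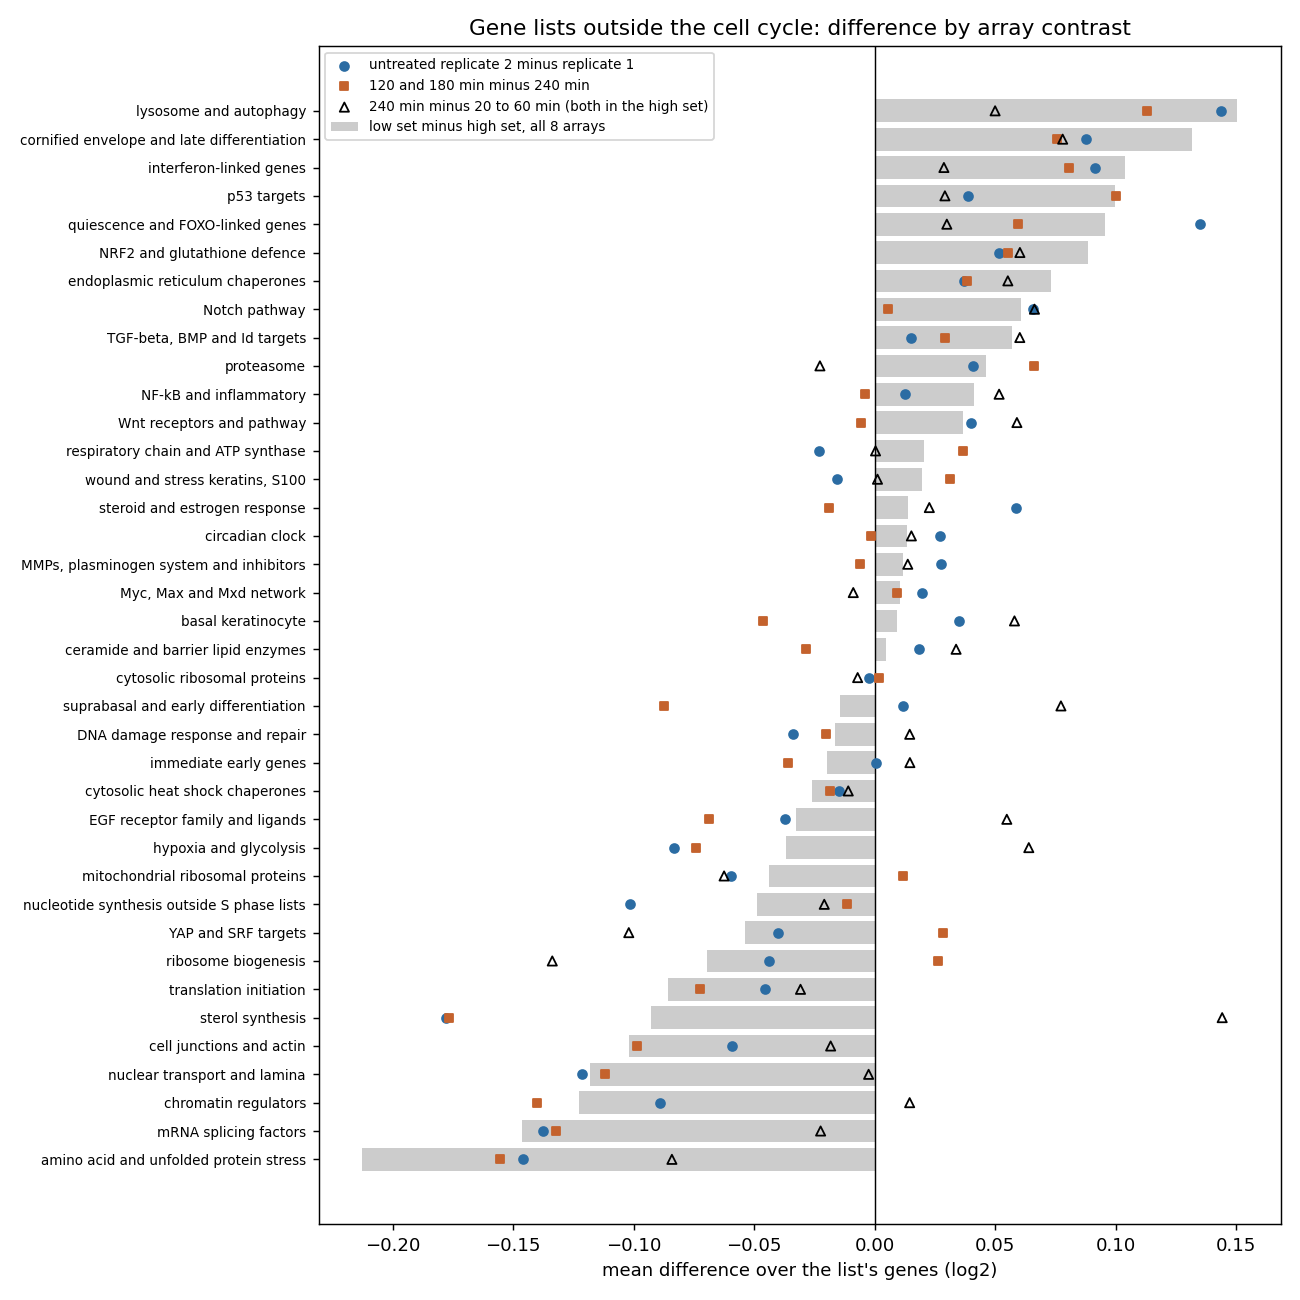
Mean difference over the genes of each list other than the cell cycle lists (x axis, log2), 6 of which share 1 or 2 genes with those: bars for the low minus the high set, points for 2 smaller contrasts of arrays and for 240 min minus the first hour within the high set. Splicing and lysosome lists have bar and both contrasts on 1 side, whereas ribosome biogenesis stands at 0.03 for 120 and 180 min minus 240 min.

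In the upward direction, lysosome and autophagy genes had 24 of 46 higher (52.2%, against 17.6%) and none lower, with a median of 0.13. The list mean read 9.80, 9.80, 9.74, 9.78 and 9.82 in the high set and 9.94, 9.95 and 9.92 in the low set. Gabarapl1, a ubiquitin-like protein of the autophagosome, read 9.98, 9.91, 9.69, 9.80 and 10.01 in the high set and 10.43, 10.59 and 10.56 in the low set (0.64), with a range of 0.16 over the low arrays. Map1lc3a, of the same family, read 9.63, 9.57, 9.42, 9.50 and 9.63 in the high set and 9.90, 9.99 and 9.95 in the low set (0.40), and Wipi1, which binds the forming autophagosome, read 10.12, 10.11, 9.95, 9.97 and 10.02 in the high set and 10.40, 10.45 and 10.33 in the low set (0.36). The lysosomal enzymes Glb1, a beta-galactosidase, and the cathepsins Ctsf and Ctsh stood at 0.42, 0.36 and 0.34. Glb1 read 8.65, 8.57, 8.53, 8.59 and 8.55 in the high set and 9.05, 9.03 and 8.91 in the low set, with a range of 0.13 over the high arrays. The list's difference was 0.14 in the untreated pair and 0.11 for 120 and 180 min against 240 min.

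Many lysosomal promoters are known to carry E-box-like sites of the factors TFEB and TFE3. Candidates were called members of this list with 1 window that holds the E-box CACGTG, ranked by size of difference. Of these, Atg5 is not printed. For the 2 promoters shown, the presence of CACGTG was thus fixed by choice. They are those of Glb1 (chr9:114400828-114401077, plus strand) and Ctsf (chr19:4854915-4855164, plus strand), as 250 bases before the RefSeq start site on GRCm38.p6, with CACGTG in capitals.
Glb1: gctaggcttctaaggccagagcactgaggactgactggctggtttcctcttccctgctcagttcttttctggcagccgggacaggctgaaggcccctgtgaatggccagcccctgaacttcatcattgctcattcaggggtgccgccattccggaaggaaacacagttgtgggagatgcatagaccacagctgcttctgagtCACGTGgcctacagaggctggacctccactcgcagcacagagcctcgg
Ctsf: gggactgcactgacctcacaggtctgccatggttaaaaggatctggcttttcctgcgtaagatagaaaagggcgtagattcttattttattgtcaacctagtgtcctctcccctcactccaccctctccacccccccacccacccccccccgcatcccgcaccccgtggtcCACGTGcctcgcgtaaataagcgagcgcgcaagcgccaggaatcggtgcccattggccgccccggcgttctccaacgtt
CACGTG was in 17 of 43 windows of the list (39.5%), against 9.95% of the windows of all genes measured and 11.2% of those of the 246 higher outside genes. RefSeq windows were found for 39 of its 46 genes. Tfeb itself overlapped between the sets (0.06).

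Quiescence and FOXO-linked genes had 15 of 43 higher (34.9%) and 3 lower, with a median of 0.05. Ccng2, a cyclin that restrains the cycle and a FOXO target, read 9.31, 9.23, 9.15, 9.21 and 9.30 in the high set and 9.68, 9.89 and 9.74 in the low set (0.53). Ypel3, a small growth-restraining protein, read 10.19, 10.23, 9.93, 10.02 and 10.29 in the high set and 10.64, 10.72 and 10.68 in the low set (0.55). In Ccng2 the high arrays spanned 0.16, and the gap to the low set was 0.37. Zfp36l1, which speeds mRNA decay, stood at 0.42, the Myc antagonist Mxd4 at 0.35, Ypel5 at 0.32 and the clock-related factor Tef at 0.30. The antiproliferative genes Tob1 (0.24), Tob2 (0.18) and Btg2 (0.24), Sesn3 (0.23), Hbp1 (0.16), Klf9 (0.19) and catalase, Cat (0.26), were higher by less than 0.3. All further Klf9 probe sets past the filter overlapped, from -0.03 to 0.13. Further probe sets of Tef (0.10), Btg2 (0.07), Hbp1 (0.07) and Tob2 (0.06) overlapped too, while others of Hbp1 and Tob2 were higher. Klf6 (-0.27), Kitl (-0.25) and Bcl6 (-0.17, and -0.11 without 120 min) were lower. Another Bcl6 probe set gave 0.05 with overlap. Txnip, often used as a marker of arrested cells, read 9.67, 9.84, 9.94, 10.25 and 9.90 in the high set and 10.22, 10.66 and 10.39 in the low set and overlapped (0.50), since 60 min was above untreated replicate 2. Zfp36l2, a relative of Zfp36l1, overlapped in the other direction (-0.34), and its 2 further probe sets gave 0.16 and 0.10 with overlap.

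Of 34 p53 targets, 10 were higher and none lower (median 0.08). Besides Ccng2 they were genes such as Mdm2, the ligase that degrades p53 (0.27), Trp53inp1 (0.25) and Ier3 (0.29). Gadd45g stood at 0.35, and at 0.20 without 120 min. The best known target, the CDK inhibitor Cdkn1a, overlapped (0.15). Interferon-linked genes were higher in 13 of 36 and lower in none (median 0.08), with B2m, the light chain of MHC class I, at 10.99, 10.88, 10.82, 10.83 and 10.86 in the high set and 11.24, 11.31 and 11.12 in the low set (0.35), and H2-K1 at 0.23. Proteasome subunits were higher in 12 of 36 and lower in 2, by small amounts (median 0.04), with Psme4 at 0.20, Psma5 at 0.18 and Psmd3 at -0.18. NRF2 and glutathione genes had 12 of 41 higher and 2 lower. Gstm5, a glutathione transferase, read 9.34, 9.17, 9.09, 9.14 and 9.24 in the high set and 9.58, 9.74 and 9.60 in the low set (0.44), and Mgst1 (0.44), Gsta4 (0.35) and the peroxiredoxin Prdx2 (0.30) had the same direction.

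The remaining lists divided in both directions or held few called genes. Cytosolic heat shock chaperones had 11 of 32 lower, such as Cct7, a chaperonin subunit (-0.46), and 6 higher, such as Hspa1a (0.27). In DNA damage and repair genes the numbers were 11 and 5 of 40, with Topbp1 at -0.29 and Xrcc4 at 0.32. Respiratory chain genes had 9 lower, such as Uqcrc2 (-0.26), and 13 higher of 54. Ndufb2, a subunit of complex I, read 10.93, 10.79, 10.63, 10.49 and 10.78 in the high set and 11.16, 11.28 and 11.17 in the low set (0.48). Of 39 immediate early genes, 9 were lower, such as Jun (-0.34), and 5 higher, such as the kinase Sgk1 (0.40). YAP and SRF targets stood at 4 and 4 of 20, with endothelin, Edn1, at -0.51 and thrombospondin, Thbs1, at 0.49. Wound keratins and S100 genes stood at 6 and 4 of 23, with Krt18 at -0.40 and S100a13 at 0.50. The Myc network had 5 of 23 lower and 1 higher, with the polyamine enzyme Odc1 at -0.26. Endoplasmic reticulum chaperones had 2 lower and 6 higher of 27, with Pdia4 at 0.34. A further Pdia4 probe set gave 0.06 with overlap.

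In each of the signalling lists the shares called lay below the background of 11.9% lower and 17.6% higher, though Wnt genes came near the latter at 17.2%. The lower and higher numbers were 1 and 2 of 25 for NF-kB and inflammatory genes, where the cytokine Il18 stood at -0.52 and the chemokine Cxcl5 at 0.51. They were 2 and 4 of 30 for TGF-beta and BMP targets, 2 and 4 of 24 for Notch, and 0 and 5 of 29 for Wnt genes. For the EGF receptor family they were 1 and 1 of 16, and for steroid and estrogen response genes 0 and 2 of 21. Other lists were not all below the background. Barrier lipid enzymes had 5 and 4 of 26 (19.2% and 15.4%), and matrix proteases and their inhibitors 2 and 5 of 21 (9.52% and 23.8%). Hypoxia and glycolysis genes had 4 and 2 of 30, and clock genes 2 and 2 of 17.

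Keratinocyte differentiation did not divide along the sets. The identity genes Krt5 and Krt14, the keratins of basal cells, stood at -0.03 and -0.02, and the epidermal factor Trp63 at -0.06. The mean of the 12 identity genes lay between 11.82 and 11.93 on all 8 arrays, so the markers of the labelled cell type were present throughout. Of 33 basal genes, 4 were lower and 4 higher, and of 31 suprabasal genes 3 and 1. Krt1, an early differentiation keratin, read 11.13, 10.82, 10.89, 11.13 and 11.43 in the high set and 10.78, 10.70 and 10.88 in the low set and overlapped (-0.30). Cornified envelope genes had a median difference of 0.11, but 3 of 46 were higher without overlap, below the background. Loricrin, Lor, read 11.40, 11.01, 11.11, 10.91 and 11.35 in the high set and 11.58, 11.85 and 11.31 in the low set (0.42), and the late envelope genes Lce1i (0.61), Lce1f (0.58) and Lce1b (0.42) likewise overlapped, with 120 min the highest array and 180 min below untreated replicate 1. Lce1f stood at 0.36 without 120 min and 0.79 without 180 min. The list's mean difference of 0.13 was 0.08 without 120 min and 0.20 without 180 min.

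Among lists of other cell types, fibroblast and matrix genes had the most called genes, and the others held 12 or fewer measured genes. Of 19 fibroblast and matrix genes, 8 were higher and none lower (42.1%, against 17.6%), and their mean was 8.20 to 8.30 in the low set and 8.10 to 8.17 in the high set. Col5a2 (0.31) and Col6a3 (0.29) led them, while the main fibroblast collagen genes stood at 0.07 for Col1a1, with overlap, and 0.15 for Col1a2. Leukocyte and Langerhans cell genes had 3 of 12 higher (25.0%, against 17.6%, on few genes), with a mean of 7.54 to 7.63 against 7.44 to 7.53. H2-Ab1, an MHC class II chain of Langerhans cells, read 7.86, 7.67, 7.63, 7.56 and 7.75 in the high set and 8.08, 8.31 and 8.02 in the low set (0.44). The defining markers Ptprc, Cd207 and Cd74 of that list, Dcn and Lum of the fibroblast list and Adipoq and Plin1 of the adipocyte list had no value past the filter. Listed markers with a measured value were 19 of 25 for fibroblasts, 12 of 25 for leukocytes, 7 of 15 for muscle, 4 of 10 for adipocytes, 2 of 7 for erythroid cells, 7 of 10 for melanocytes and 4 of 12 for endothelium. The muscle list had 2 of 7 higher (28.6%), Tnnt2 (0.56) and Mylpf (0.55), whereas Des (0.05) and Myog (0.05) overlapped. Of 4 adipocyte genes Fabp4 was higher and Lpl (-0.25), Cidec (-0.04) and Retn (0.04) overlapped. Hba-a1 was the higher 1 of 2 erythroid genes (0.20). None of 7 melanocyte and 4 endothelial genes separated the sets. Without the filter the mean differences of the leukocyte, adipocyte and muscle lists, 0.11, 0.22 and 0.17, were 0.06, 0.11 and 0.08. The part of other cells in the higher genes was not tested.

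The sets mix untreated and treated arrays, so the division can be read on each side by itself. The untreated pair shares no array with the 6 tamoxifen arrays, though both sides were assigned by their cell cycle genes. Of 161 outside genes at least 0.3 lower in untreated replicate 2 than in replicate 1, 131 (81.4%) were lower at 120 and 180 min than on all 4 other tamoxifen arrays, against 17.7% of all outside genes. For 133 genes at least 0.3 higher, the count was 108 (81.2%, against 25.3%). The sign was shared by 157 and 124 of them. The shares over all outside genes were taken without the limit of 0.3, so they are not a like base. Both sides were assigned by the same levels, and no conclusion is drawn from the contrast. Each side is a comparison of few arrays, and the untreated difference, of 1 array with 1, has no replicate check. For the 216, the 246 and the 83 genes the selection fixed the direction on both sides, and only the sizes are given. Median differences of the 216 genes were -0.30 in the untreated pair and -0.36 for 120 and 180 min against 240 min. They were 0.26 and 0.37 for the 246, and for the 83 cell cycle genes -0.60 and -0.53. Between the outside and the cycle genes the value that differed in sign was 240 min minus the first hour: -0.08 for the lower outside genes, and 0.16 for the cycle genes.

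Further probe sets of the same genes mostly gave the same direction. For 92 of the 216 lower genes the array held 155 more probe sets past the filter, of which 143 had the same sign and 104 the same call. For 91 of the 246 higher genes it held 130, of which 128 and 102 did. Snrpa1 had 2 more, at -0.72 and -0.74, and Stx18 had 4, from -0.63 to -0.28. Mdp1 was uneven: 1 of its further probe sets gave -0.47 and the other -0.0036 with overlap. Probe sets past the filter also overlapped in other named genes, such as Wipi1 (0.13 and 0.10), H2-K1 (0.10 and 0.09), Psma5 (0.06) and Nop56 (-0.22). Others of Wipi1, H2-K1 and Psma5 were higher. Median intensity per array ran from 192 to 198, and the hybridisation, labelling and RNA length controls overlapped between the sets.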

How the data were processed

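Total RNA of 8 samples of mouse primary keratinocytes was extracted with Trizol and hybridised as biotinylated cRNA to Affymetrix arrays, per the labels' protocols. The deposited values are intensities on a linear scale, 1 per probe set and array, with similar medians on all 8 arrays; how the authors summarised and scaled the arrays is a point on which neither labels nor headers speak. Probe sets were named through GEO's platform annotation: 20380 had 1 symbol and were used, 691 had several and 1555 were unnamed, and 64 control probe sets were left out.

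Values were taken as log2(intensity + 16). Dim probe sets, the 30% whose mean over the arrays was below 7.04, were left out, and each gene was represented by its probe set with the highest mean. The low and high sets were given by their cell cycle gene levels on these arrays, so no test was run and no p-value is given. A call means no overlap between the sets, with a mean difference of 0.3 as a further limit. The members and the gene lists were chosen with earlier results of these data known. Genes named are the 4 markers of the rule, the 15 largest differences in each direction among called outside genes, up to 6 members of a described list by size of difference, up to 3 of a list of another cell type, and called genes of quiescence, CDK inhibitors and D cyclins; further D cyclins, CDKs, inhibitors and others outside this rule were named after their values were seen. Of 50 gene lists, 4 were of the cell cycle and 7 of other cell types. The calling script was checked on simulated data. Python 3.11.15, pandas 2.3.3 and numpy 2.4.6 were used. Promoter windows came from RefSeq on GRCm38.p6. Alternatives were other pseudocounts, quantile normalization, median centring, other filters, means over probe sets and arrays left out. The number of arrays, 3 against 5, limits the precision, and any spread between arrays may be technical.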

Additional observations from a re-analysis of the deposited data

Results flagged for a closer look

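Among the 5 high arrays, 1 array stood apart from the other 4 in 17 of 336 values examined. That is near the share of about 1 in 20 that chance flags, so the flagged values are listed without a reading. The values share arrays and include the markers of the rule. The measure is the gap to the nearest array as a share of the whole range. The array at 20 min stood below the others in the S phase core list (0.722), in DNA damage and repair genes (0.902), and in Ccna2 (0.832), Tk1 (0.730), Lig1 (0.840), Mcm5 (0.789), Pbk (0.855) and Racgap1 (0.818), all of which but the repair list belong to the cell cycle. It stood above the others in the chemokine gene Cxcl14 (0.715). The array at 60 min stood above the others in cytosolic heat shock chaperones (0.720), S100a16 (0.722) and Il18 (0.845), and below them in the antiproliferative genes Tob1 (0.768) and Tob2 (0.718) and in catalase, Cat (0.762). The array at 240 min stood high in Srebf2, the regulator of sterol synthesis (0.753), and untreated replicate 1 low in Eif5b (0.722).

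The list mean had opposite signs in the untreated pair and in the tamoxifen arrays for 9 of 50 lists, with no mean of these larger than 0.059. In 1 of the 9, respiratory chain and ATP synthase genes, the arrays at 120 and 180 min also lay on one side of all 4 other tamoxifen arrays. Its list mean was -0.023 in untreated replicate 2 minus replicate 1, and 0.037 in 120 and 180 min minus the other 4 tamoxifen arrays. That difference was not tested.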

How the results depend on the processing

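Of 68 counts of called genes under alternatives, 67 lay within 1.5 times the value reported. The exception was the number of higher outside genes of at least 0.3, which was 152 in place of 246 without the arrays of the first hour. With 1 array left out at a time, the lower and higher genes of at least 0.3 numbered 167 to 267 and 200 to 310. Of 831 list means, 814 moved by less than the spread between arrays, and none of the 831 reversed while called. With no filter, the interferon-linked list stood at 0.079, leukocyte at 0.062, adipocyte at 0.11 and muscle at 0.079. With the lowest 50% of probe sets left out, quiescence genes stood at 0.13, wound keratins and S100 at 0.067, interferon-linked at 0.17, MMPs and plasminogen at -0.0055 and leukocyte at 0.20. Without the first-hour arrays, G2/M stood at -0.38, G2/M core at -0.65, ribosome biogenesis at -0.0067, Notch at 0.032, hypoxia at -0.079, sterol synthesis at -0.17, amino acid stress at -0.14 and NRF2 at 0.056. The cause was not tested. Lists left with fewer than 3 genes have no such value. Of 4838 values of single genes, 76 moved and 0 reversed while called. No paired analysis was possible because each treated time point is 1 array and the labels carry no number that pairs arrays. The number of arrays limits what small differences can show.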
